A study of Mus musculus with 4 samples.

Results

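Ring1b occupancy was examined at 9 loci that carry regulators of the fat, bone and muscle lineages: Pparg, Cebpa, Runx2, Sp7, Myod1, Ebf1, Ebf2, Zfp423 and Prdm16. Each locus was a fixed window of 80 to 460 kb on the mouse build mm9, and its members were the rows of the deposited region table that overlap the window. Of the 6371 regions in the table, 7 did so: 5 in the Runx2 window and 2 in the Ebf1 window. The other 7 windows held no row.

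Ring1b was measured by chromatin immunoprecipitation and sequencing in C3H10T1/2 cells, mesenchymal progenitors derived from C3H mouse embryos, at passage 10 to 15. One culture stably expressed wild-type (WT) histone H3.3 and the other H3.3 with methionine in place of lysine 36 (K36M), both with a FLAG-HA tag. Whether each line is 1 clone or a pool is not given in the sources used here, and with no expression values in the table the cell type label was not checked against marker genes. There was 1 Ring1b library for each form of H3.3, so no value below carries an error between cultures and no difference between the forms could be tested. The 2 input libraries were not analysed here, and background reads were not taken off. How much of a low level is background was therefore not determined.

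Ring1b is the ubiquitin ligase subunit of Polycomb repressive complex 1, which marks histone H2A at repressed genes. In progenitor cells Polycomb complexes are known for holding developmental regulators of other fates in a silent state. Pparg and Cebpa encode the core transcription factors of fat cell differentiation. Ebf1, Ebf2, Zfp423 and Prdm16 encode factors of the fat lineage that act before or beside them, with Ebf2 and Prdm16 known for brown and beige fat. Runx2 encodes the factor that commits cells to bone, Sp7 encodes osterix, which acts after Runx2, and Myod1 encodes the muscle determination factor. C3H10T1/2 cells are a textbook model because they can be turned toward each of these fates.

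Polycomb complexes in mammals are found mostly at DNA rich in CpG dinucleotides, and for this reason the start regions of 3 genes are shown: Runx2 and Ebf1, whose windows held regions, and Cebpa, whose window held none. The stretches lie upstream of the annotated gene, come from RefSeq on GRCm38.p6 and are written 5′ to 3′ along the gene, with each CpG in capitals.
Runx2, chr17:44814798-44814877, minus strand: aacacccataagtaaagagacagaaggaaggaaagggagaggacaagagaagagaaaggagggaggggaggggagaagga
Ebf1, chr11:44617850-44618099, plus strand: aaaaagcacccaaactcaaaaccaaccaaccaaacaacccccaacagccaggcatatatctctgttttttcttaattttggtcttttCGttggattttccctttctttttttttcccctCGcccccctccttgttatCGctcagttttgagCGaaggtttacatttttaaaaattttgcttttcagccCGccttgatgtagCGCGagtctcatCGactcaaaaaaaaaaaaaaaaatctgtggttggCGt
Cebpa, chr7:35119043-35119292, plus strand: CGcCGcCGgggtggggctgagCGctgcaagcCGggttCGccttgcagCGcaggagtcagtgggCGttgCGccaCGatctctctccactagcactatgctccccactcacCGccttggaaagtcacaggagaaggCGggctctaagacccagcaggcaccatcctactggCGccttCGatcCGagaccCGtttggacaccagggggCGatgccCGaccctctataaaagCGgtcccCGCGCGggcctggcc

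These stretches differ widely in CpG content. The Runx2 stretch has 0 CpG in 80 bases, the Ebf1 stretch 9 in 250 and the Cebpa stretch 22 in 250. Over the whole RefSeq promoter window, from 250 bases before to 50 bases after the start, Runx2 has 2 CpG, Ebf1 has 9 at the start shown and 17 at another, and Cebpa has 29. The median of the 32851 promoters of that length is 7. The Cebpa promoter exceeds 87.1% of them and the listed Runx2 promoter 14.1%. Only 1 start is listed for Runx2, so other starts of that gene were not examined. Among the other 3 genes with a RefSeq promoter, Pparg has 44, 13 and 2 CpG at 3 starts, Prdm16 has 24, and Zfp423 has 21 and 7 at 2 starts. Ebf2, Sp7 and Myod1 have no entry. The region table is on mm9 and these promoters are on GRCm38, and coordinates were not converted. Whether a region covers a promoter was therefore not determined, and whether CpG content goes with listed Ring1b was not tested.

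The Runx2 window, chromosome 17 from 44600001 to 44980000, held the most listed Ring1b of the 9. Its 5 regions covered 19600 bp, or 5.16% of the window. Levels are given as RPM, that is, reads per 1000000 reads in a region without division by its width. Summed over the 5 regions, the WT library held 39.5 RPM and the K36M library 19.0 RPM, from 1180 and 599 reads. The K36M level was thus 2.08-fold lower, with a 95% counting interval of 1.89-fold to 2.30-fold. Relative to the median of all regions, the summed log2 ratio was -0.38 in place of -1.06. These intervals are exact (Clopper-Pearson), cover counting error only, and treat reads without molecular identifiers as independent. On GRCm38, Runx2 overlaps a neighbouring gene, Supt3, so regions in the window may belong to either.

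The 5 Runx2 regions did not change alike. The first in genome order is the widest, at 44631401 to 44641600 (10200 bp), and it had 8.44 RPM with WT H3.3 and 6.28 with K36M. It was 1.34-fold lower (interval 1.11 to 1.63). The second is a 400-bp region at 44725001 to 44725400, with 92 WT reads (3.08 RPM) and 24 K36M reads (0.761 RPM). It had the largest reduction of all 7 regions, 4.05-fold (interval 2.56 to 6.64). The third, at 44726001 to 44730800 (4800 bp), begins 600 bp further on, and its level of 17.7 RPM was the highest of the 7 in WT. The K36M level there was 6.18 RPM, which is 2.87-fold lower (interval 2.43 to 3.40). The fourth, at 44796401 to 44798600 (2200 bp), had 5.23 RPM in the WT library and 1.65 in the K36M library. That is 3.17-fold lower (interval 2.30 to 4.43). The fifth, at 44846001 to 44848000 (2000 bp), had 5.06 RPM with WT H3.3 and 4.12 with K36M. Its ratio of 0.815 had an interval of 0.639 to 1.04, which includes 1.

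The 3 middle regions were therefore reduced more than the 2 outer ones. Their ratios of 0.247, 0.349 and 0.315 have intervals that end at 0.434 or below, and those of the outer regions begin at 0.614 or above. Summed, the middle regions came to 26.0 RPM (WT) and 8.59 RPM (K36M), 3.03-fold lower in K36M (interval 2.64 to 3.49). The outer regions came to 13.5 and 10.4 RPM, 1.30-fold lower in K36M (interval 1.12 to 1.51). This division was made after the values were seen and is a description of these 2 libraries.

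Per length, the order of the Runx2 regions was different. The density in WT was highest in the 400-bp region, at 7.71 RPM per kb, followed by the third region at 3.69. The fifth and the fourth region, at 2.53 and 2.38, differed less than their counting error, and the widest region was lowest at 0.828. In K36M the fifth region, at 2.06 RPM per kb, and the 400-bp region, at 1.90, differed less than the counting error of the latter (1.22 to 2.83, from 24 reads). That interval also holds the 1.29 of the third region. The fourth and the widest region, at 0.749 and 0.615, were lower than these 3 and had overlapping intervals. The spread in density between the regions was thus smaller in K36M. The density of the third region was higher than that of 98.0% of the 2360 regions of over 2000 to 8000 bp in WT and of 87.1% in K36M.

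**Figure D1:**
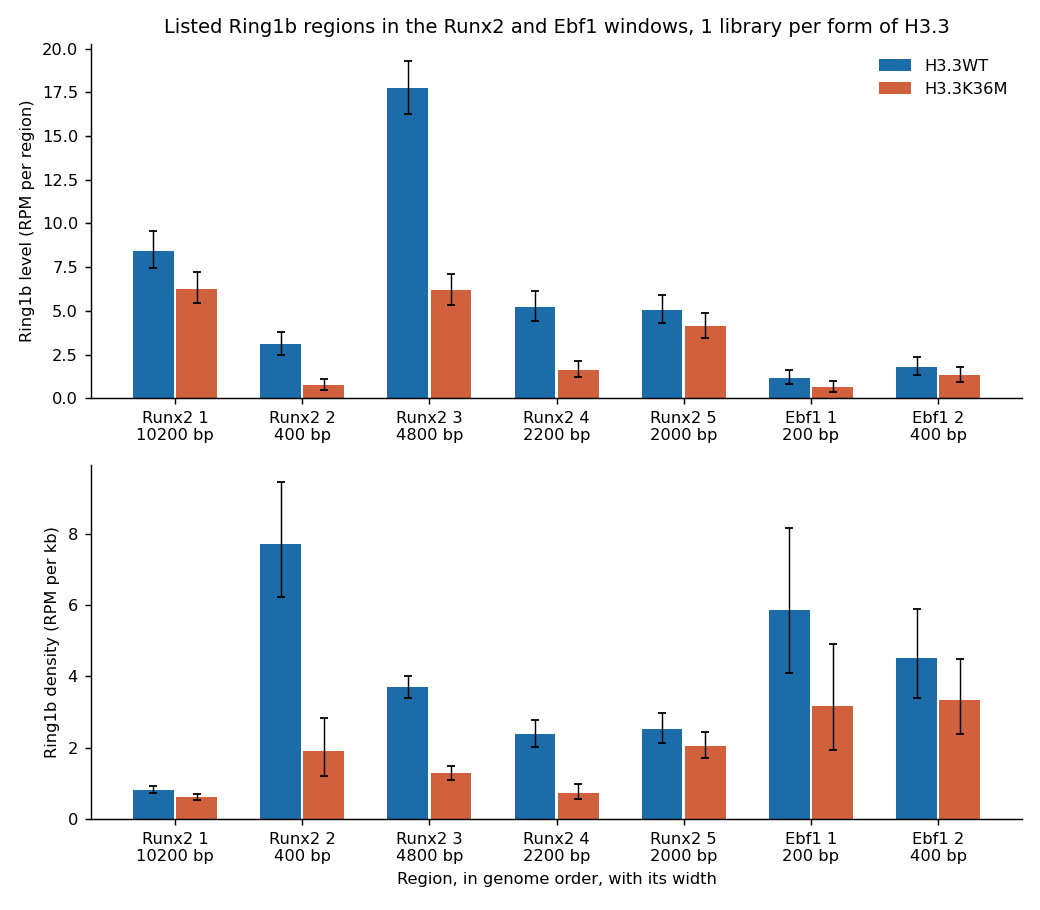
Ring1b level in RPM per region (top) and density in RPM per kb (bottom) of the 7 listed regions in the Runx2 and Ebf1 windows, in genome order, in the H3.3WT library (blue) and the H3.3K36M library (orange). Bars are single libraries and error bars are 95% Poisson counting intervals; the third Runx2 region has the highest WT level (17.7 RPM), and the 3 middle Runx2 regions have the largest reductions.

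The Ebf1 window, chromosome 11 from 44400001 to 44860000, held little listed Ring1b. Ebf1 encodes a DNA-binding factor of B cell and fat cell development. Its 2 regions touch each other and together cover 600 bp, 0.130% of the window. The first, at 44762001 to 44762200, had 1.17 RPM with WT H3.3 and 0.634 with K36M, from 35 and 20 reads. Its ratio of 0.541 had an interval of 0.296 to 0.963. The second, at 44762201 to 44762600, had 1.81 and 1.33 RPM, from 54 and 42 reads. Its ratio of 0.736 had an interval of 0.480 to 1.12, which includes 1. As the regions adjoin, they are not separate sites. Summed, they held 2.98 and 1.97 RPM, a 1.52-fold lower level in K36M with an interval of 1.08 to 2.13. All regions together were 1.58-fold lower in sum, and relative to the median region the Ebf1 log2 ratio turned from -0.60 to 0.075. Their joint density was 4.97 (WT) and 3.28 (K36M) RPM per kb. Taken singly, the 2 regions were below the medians of regions of at most 400 bp in both libraries, 6.62 and 3.49 RPM per kb, by more than counting error only for the second region in WT. Joined into 600 bp, they were above those of regions of over 400 to 2000 bp, 2.84 and 1.29 RPM per kb, so their rank depends on whether they are joined.

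The summed reductions at the Runx2 and Ebf1 loci could not be told apart at this depth. The interval of the Runx2 ratio (0.435 to 0.530) and that of the Ebf1 ratio (0.469 to 0.922) overlap. The Ebf1 interval is wide because it rests on 89 and 62 reads.

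All 7 regions were lower in K36M, as were 85.1% of the 6371 regions in the table. On the log2(RPM + 0.1) scale, 3 of the 7 regions were reduced by 2-fold or more (33.5% of all regions), all 3 in the Runx2 window, and 4 of the 7 by 1.5-fold or more (53.4% of all regions). An increase of 1.5-fold or more was seen at 0 of the 7 (1.22% of all regions), and so was one of 2-fold or more (0.314% of all regions). The counting interval lay wholly below 1 at 5 of the 7 (65.1% of all regions) and wholly above 1 at 0 (3.06% of all regions). The median log2 ratio of the 7 was -0.79 (range -1.89 to -0.29), beside -0.65 over all regions (quartiles -1.22 and -0.20). That median is the value of the first Ebf1 region, which rests on 35 and 20 reads. With the 2 touching Ebf1 regions joined, 6 regions remained and their median was -1.04. With 7 regions, these shares are near the background and show nothing particular to the lineage loci as a group. According to the table's name the regions were picked from WT peaks, and what this choice adds to the lower K36M levels was not tested.

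The median log2 ratio of all regions differed between width classes, with no single direction from narrow to wide: -0.59, -0.91, -0.69 and -0.53. The members were therefore set beside regions of like width. The third and the fourth Runx2 region, with log2 ratios of -1.50 and -1.61, lay below the lower quartile of their class of over 2000 to 8000 bp (-1.15, median -0.69). Of that class, 12.9% and 10.3% had a lower log2 ratio. The 400-bp Runx2 region, at -1.89, also lay below the lower quartile of regions of at most 400 bp (-1.54), 17.4% of which were lower. The fifth Runx2 region, at -0.29, lay above the upper quartile of its class of over 400 to 2000 bp (-0.37), and 78.9% of that class had a lower ratio. The widest Runx2 region, at -0.42, and the Ebf1 regions, at -0.79 and -0.42, lay between the quartiles of their classes.

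**Figure D2:**
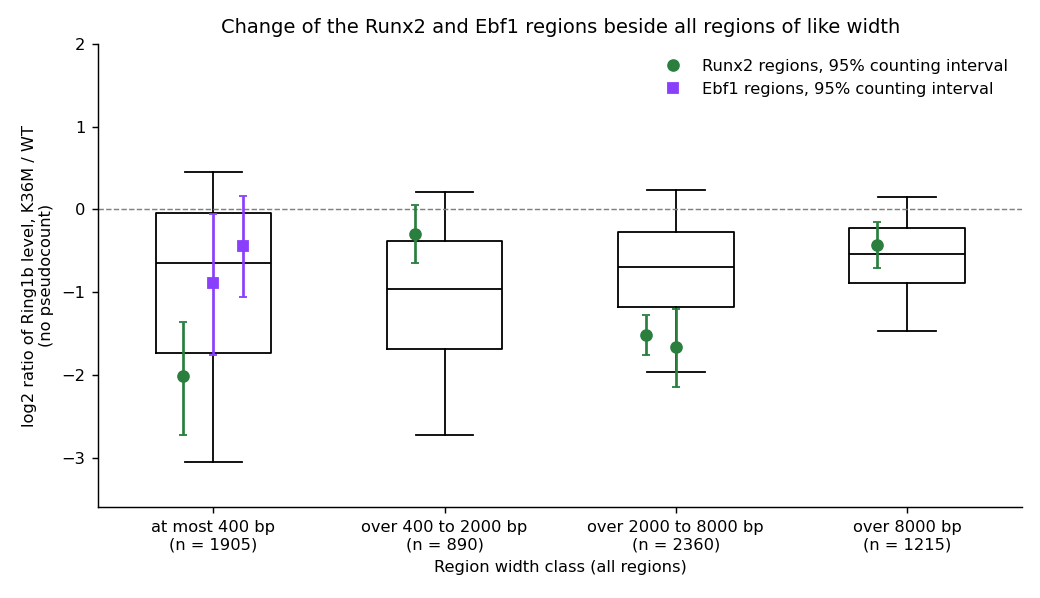
Log2 ratio of the Ring1b level (K36M over WT, no pseudocount) of the 5 Runx2 regions (green circles) and 2 Ebf1 regions (purple squares) with 95% counting intervals, beside all regions of the same width class. Boxes show quartiles and median and whiskers the 5 and 95 percentiles, with 1 region without reads in both libraries not drawn; the 3 middle Runx2 regions lie below the boxes of their classes and the fifth lies above its box.

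No region was listed in the windows of Pparg (chromosome 6, 115340001 to 115480000), Cebpa (chromosome 7, 35870001 to 35950000), Sp7 (chromosome 15, 102150001 to 102230000), Myod1 (chromosome 7, 53590001 to 53680000), Ebf2 (chromosome 14, 67820001 to 68080000), Zfp423 (chromosome 8, 90150001 to 90520000) and Prdm16 (chromosome 4, 153650001 to 154050000). For these genes the table gives no Ring1b level in either form of H3.3. If the regions were picked from WT peaks, as the table's name has it, a gain in K36M at a site without such a peak would not be listed. How the regions were picked was not checked. Each window's chromosome was cut, from its first listed region to its last, into tiles as wide as the window. The first tile thus held a region by construction, and tiles were placed without regard to genes. The share of tiles with a region ranged from 7.84% for Cebpa and 8.04% for Myod1 to 36.7% for Runx2 and 43.5% for Ebf1. The mean of these shares was 24.8%, and 2 of the 9 windows, or 22.2%, held a region. The share of loci with listed Ring1b was thus close to the mean share of such tiles. How it compares with windows around other genes was not tested.

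Listed regions lay close to some of the empty windows. The nearest was 11.4 kb before the Ebf2 window, at 67806801 to 67808600, where the WT library had 3.15 RPM and the K36M library 1.01 RPM, 3.10-fold less (interval 2.06 to 4.79). Another lay 46.8 kb before the Cebpa window, at 35817201 to 35823200, where 8.31 RPM stood against 3.07 RPM, 2.70-fold less in K36M (interval 2.13 to 3.45). A region 55.6 kb before the Sp7 window, at 102088601 to 102094400, had 5.90 and 3.77 RPM, 1.56-fold less in K36M (interval 1.23 to 1.99). These regions are given by distance only and were not assigned to a gene.

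The other 4 empty windows stood more than 100 kb from any region. The region nearest to Prdm16 lay 132.4 kb before its window, at 153513601 to 153517600. There the WT library had 11.1 RPM and the K36M library 2.28 RPM, 4.86-fold less (interval 3.76 to 6.36). The nearest to Zfp423 lay 153 kb before its window and was 2.32-fold lower (8.17 against 3.52 RPM). The nearest to Pparg lay 189.2 kb before its window and held 17 WT reads and 1 K36M read. It belongs to a group whose widest region, at 115135801 to 115144200, had 11.8 RPM (WT) and 3.55 RPM (K36M). Myod1 was the most isolated: its nearest region lay 404.4 kb before the window, with levels of 4.52 RPM (WT) and 3.93 RPM (K36M). Its ratio was 0.869, and the interval of 0.676 to 1.12 includes 1.

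**Figure D3:**
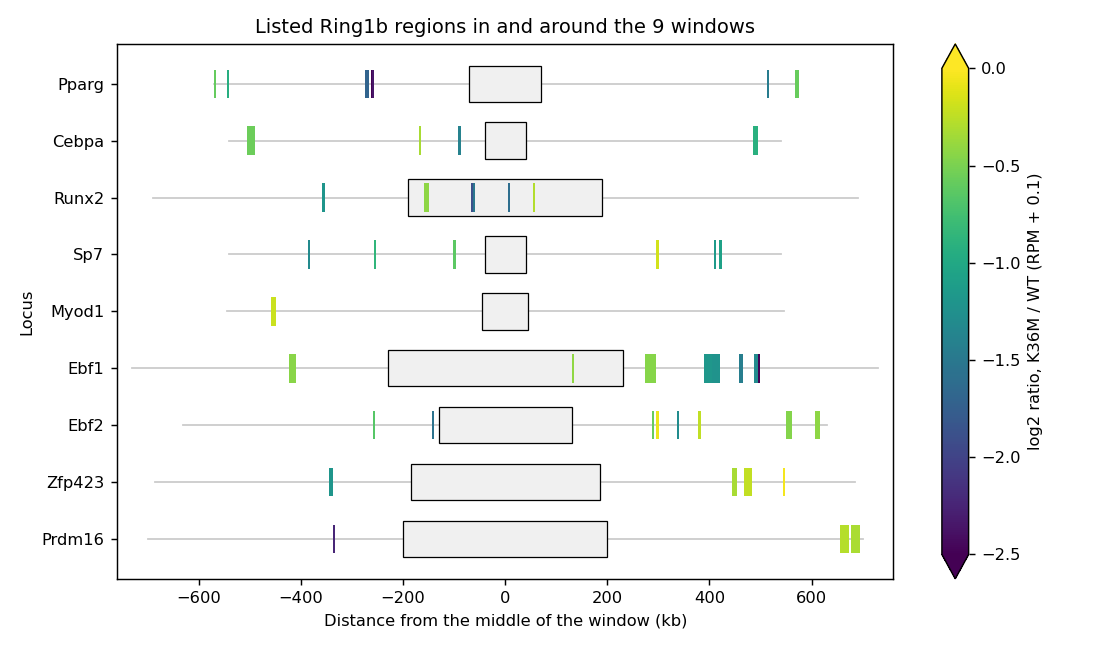
Listed regions in the 9 windows (boxes) and within 500 kb of their edges (grey lines), by distance in kb from the middle of each window, coloured by the log2 ratio of the Ring1b level (K36M over WT, RPM + 0.1); regions narrower than 4 kb are drawn 4 kb wide. The Runx2 window holds 5 regions and the Ebf1 window 2 adjoining ones, drawn as 1 mark. All 41 regions around the windows are lower in K36M, 35 of them with a counting interval below 1 (65.1% of all regions).

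Within 500 kb of the window edges the table listed 41 regions, and all 41 were lower in K36M (85.1% of all regions). Their median log2 ratio was -0.87, with a reduction of 2-fold or more at 18 (33.5% of all regions). The counting interval lay wholly below 1 at 35 of the 41 (65.1% of all regions). A region beside Ebf2 had 101 reads in each library, and 1 beside Zfp423 had 153 in WT and 157 in K36M. These were lower in K36M only after scaling. The 7 regions beside Ebf1 summed to 55.7 RPM (WT) and 27.6 RPM (K36M), 2.02-fold less in K36M (interval 1.86 to 2.19). In sum, the listed Ring1b beside the Ebf1 window thus exceeded that inside it, over 79800 bp of regions against 600 bp. Per kb of listed regions it was lower, at 0.699 (WT) and 0.346 (K36M) RPM against 4.97 and 3.28 inside. Background was not taken off, so how much of these low densities is Ring1b was not determined. Among the 7 regions beside Ebf1, the nearest, 43.4 kb past the window at 44903401 to 44926200, was 1.37-fold lower (9.31 against 6.78 RPM). The 5 regions further on, between 45019801 and 45126200, ranged in log2 ratio from -2.72 to -1.18. The lowest value is that of a 400-bp region with 54 WT and 6 K36M reads, which touches the region before it and is not a separate site.

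The summed reduction around the 9 loci ranged from 1.15-fold beside Myod1 to 2.36-fold beside Runx2, each resting on 1 region. The Myod1 value had an interval of 0.895-fold to 1.48-fold, which includes 1, so a reduction there was not shown. For the other loci the values are sums over several regions. The summed reduction was 1.74-fold beside Cebpa, 1.66-fold beside Sp7 and 1.68-fold beside Prdm16. Beside Pparg, 7 regions summed to a 2.26-fold lower level (interval 2.01 to 2.54). All 7 intervals there lay below 1, as did all 7 beside Ebf1, all 3 beside Prdm16 and the 1 beside Runx2. The count was 6 of 8 beside Ebf2, 5 of 6 beside Sp7 and 3 of 4 beside Cebpa. Beside Zfp423 it was 3 of 4, and beside Myod1 0 of 1. Around all loci the intervals below 1 came to 35 of 41 (65.1% of all regions). Beside Zfp423, 4 regions summed to a 1.29-fold lower level (interval 1.19 to 1.40). The one with the highest level, 16400 bp wide at 90802601 to 90819000, kept 18.0 RPM in K36M against 21.1 RPM in WT. Beside Ebf2, 8 regions were 1.47-fold lower in sum (interval 1.35 to 1.60). The summed interval of Pparg does not overlap that of Zfp423 or Ebf2, but these intervals leave out the spread between regions. Single regions overlapped in log2 ratio: -2.60 to -0.58 beside Pparg, -1.54 to -0.08 beside Ebf2 and -1.19 to -0.04 beside Zfp423. The value of -2.60 rests on 38 WT and 4 K36M reads. Whether the surroundings of these loci differ was therefore not settled. Beside Runx2 there was 1 region, 163.6 kb before the window, which was 2.36-fold lower (4.86 against 2.06 RPM).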

How the data were processed

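The authors deposited 1 table with a value per region for each of the 2 Ring1b libraries. The submitters' processing notes name Bowtie 1.0.0 and the build mm9. What is not given in the sources used here is how peaks were called, duplicates treated and reads counted. The columns are headed RPKM, but every deposited value is a whole multiple of 1 step per library (0.0335 in WT, 0.0317 in K36M) whatever the width, so the values are taken as RPM scaled by the authors and not divided by width. Dividing by the step gave reads, 1075510 (WT) and 720528 (K36M) summed over all regions, with medians of 139 and 91 per region; no count model was run. Starts are printed counted from 1.

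Rows overlapping a window by any base were members. The log2 ratio used a pseudocount of 0.1 RPM, which understates the change of low regions. Intervals are exact 95% Clopper-Pearson intervals of the read share. They were run on simulated reads drawn independently, as the intervals assume. That run checks the calculation only, and not duplicates or the spread between cultures. All 9 loci were named, and every row of a locus with up to 6 rows. Members and loci were chosen with earlier results of these data known. mm9 gene positions were not available, so windows were used as given and other genes of these lineages were not located. Alternatives covered pseudocount, width, low values, centring, window borders and merging. Python 3.11.15, numpy 2.4.6, pandas 2.3.3, scipy 1.17.1 and matplotlib 3.10.9 were used.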

Additional observations from a re-analysis of the deposited data

How the results depend on the processing

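The median log2 ratio of the 7 regions stayed below 0 under every alternative run, from -0.14 when centred on all regions to -1.50 without Ebf1; without Runx2 it was -0.60. Windows widened by 50 kb held 10 regions at 4 loci, adding Cebpa and Ebf2, with a median of -1.10. Without the regions under the 25th percentile of mean level 4 regions remained, and 2 of these 4 were at least 1.5-fold lower, in place of 4 of 7. The count at least 2-fold lower was 1 in place of 3 when centred, and 5 of the 7 regions had a counting interval below 1 (65.1% of all regions). For the low-value and the centred counts the share over all regions was not computed. The summed Runx2 log2 ratio of -1.06 was -0.77 without the region with the most WT reads, -0.38 relative to the median region, -1.50 as the median of its regions, -1.60 for the 3 middle and -0.38 for the 2 outer regions. The last 2 were chosen after the data were seen, as were the flank alternatives and those by width class. The summed Ebf1 log2 ratio of -0.60 reversed to 0.075 relative to the median region. The highest single Runx2 region had densities of 7.71 (WT) and 2.06 (K36M) RPM per kb, against 2.02 and 0.969 for the locus. With a pseudocount of 1 the median of all regions was -0.51, and those of the width classes, from narrow to wide, were -0.37, -0.65, -0.56 and -0.48. Each shift comes from the setting that was changed, and why the regions differ in ratio was not tested. No paired analysis was possible because there is 1 library per form of H3.3.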
